A study of Mus musculus with 12 samples.

Results

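The EGR genes Egr1, Egr2 and Egr3 and the NR4A genes Nr4a1, Nr4a2 and Nr4a3 are 6 immediate early genes of the mouse, out of 23420 genes counted. The members were selected on their families and on the measured mRNA change between treatments in these libraries, so their mRNA values and calls are a description. All BMAL1 regions within 50 kb of their starts were added, which gave 12 of the 4740 regions that the authors called, near 4 of the 6 genes. The cells were embryonic fibroblasts of the 129/sv strain background. Every group carried the genotype per1 -/-, per2 -/-, nr1d1 -/-, nr1d2 -/- and a PER2-ER transgene, a fusion of the clock repressor PER2 that 4-hydroxytamoxifen (4-OHT) is used to induce. One set of cells received 1 µM 4-OHT for 4 h, and the control set received the solvent ethanol (EtOH) at 0.1% for the same time. Polyadenylated RNA, BMAL1 chromatin immunoprecipitation (ChIP) and ChIP input were sequenced, with 2 libraries in each of the 6 groups. Neither the promoter of the transgene nor whether the cells are 1 clone or a pool is stated in the labels, and cells without the transgene were not analysed here, so an effect of 4-OHT itself and one of PER2-ER cannot be told apart. Separate cultures for the 2 libraries of a group are not stated in the labels either, and the p-values below therefore measure a spread between libraries that may be technical.

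Immediate early genes are transcribed within minutes of a growth or stress signal, from transcription factors that are already in the cell. EGR proteins are zinc-finger activators that are induced through ERK signalling and serum response factor and are restrained by the NAB corepressors. NR4A proteins are orphan nuclear receptors that are induced through cAMP and CREB as well as growth factors, and 2 of them, Nr4a1 and Nr4a2, can pair with RXR receptors. BMAL1 binds E-box DNA together with CLOCK, and PER2 represses this pair in the circadian feedback loop. The study compared BMAL1 binding and mRNA with and without induced PER2.

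For 3 of the genes, a BMAL1 region overlapped a promoter window of RefSeq, and overlapping bases are shown. They are parts of these regions, and the ChIP reads were counted over the whole regions. The bases are given on the plus strand of GRCm38.p6. The E-box core CANNTG and the CREB core TGACG (or CGTCA, the same core on the other strand) are in capitals. The region upstream of Egr2 is shown for chr10:67537619-67537763, that of Nr4a1 for chr15:101266596-101266842 and that of Nr4a3 for chr4:48045055-48045132.
Egr2: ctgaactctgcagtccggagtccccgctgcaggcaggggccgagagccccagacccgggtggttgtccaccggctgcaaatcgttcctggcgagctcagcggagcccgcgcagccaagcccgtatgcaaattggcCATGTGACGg
Nr4a1: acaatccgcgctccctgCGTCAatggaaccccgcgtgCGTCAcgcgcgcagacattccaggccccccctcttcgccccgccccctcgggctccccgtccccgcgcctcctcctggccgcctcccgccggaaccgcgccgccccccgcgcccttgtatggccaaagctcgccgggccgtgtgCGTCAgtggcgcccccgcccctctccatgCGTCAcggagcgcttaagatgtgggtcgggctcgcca
Nr4a3: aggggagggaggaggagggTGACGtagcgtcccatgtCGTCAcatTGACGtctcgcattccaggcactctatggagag

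The Egr2 stretch of 145 bases held 1 CANNTG, which overlapped 1 TGACG. The 247 bases of Nr4a1 held 4 TGACG cores and 0 CANNTG, and the 78 bases of Nr4a3 held 3 TGACG cores and 0 CANNTG. These stretches cover 92.9%, 95.4% and 23.9% of their regions. RefSeq promoter windows, which run from 250 bases before a start to 50 after it, were at hand for 4 of the 6 members. In whole windows of 300 bases, searched on both strands, TGACG occurred 4 times each at Nr4a1, Nr4a2 and Nr4a3, 2 times in 3 of the 5 windows of Egr2 and 0 times in the other 2, against a share of 20.8% of all 32851 windows with at least 1. Of the Egr2 windows, which overlap in part and belong to its several annotated starts, 4 held a CArG box, the site of serum response factor, against 1.63% of all windows. CACGTG, the E-box letters that CANNTG includes, stood in 1 of the Egr2 windows and in none of those of Nr4a1, Nr4a2 and Nr4a3, against 7.15% of all windows. That Egr2 window (chr10:67535249-67535548) lies upstream of the BMAL1 region shown above and does not overlap it. CANNTG stood in 4 of the 5 Egr2 windows and in that of Nr4a3, and in none at Nr4a1 and Nr4a2, against 72.3% of all windows. In the Egr2 windows that overlap, the same CArG box, CANNTG and TGACG cores recur, so these counts of windows are not counts of separate matches. TGACGTCA, which includes TGACG, AAAGGTCA (the monomer site of NR4A receptors) and GCGTGGGCG (the site of EGR proteins) were in none of the members' windows, against 1.79%, 1.51% and 0.612% of all windows. A match is a description of the letters and not a site.

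The mRNA libraries held 60267540 to 89695667 reads counted on genes, the BMAL1 libraries rested on 13502201 to 20712373 reads and the inputs on 12481308 to 33454366. Reads were counted for all 4 genes labelled as knocked out. Levels are in CPM, which are counts scaled to the normalised library total, in the usual unit. Per1 was at 36.7 to 45.4 CPM and Per2 at 549 to 610 over the 4 libraries. Nr1d1 was at 49.2 and 55.9 with EtOH and 16.4 and 17.5 with 4-OHT. Nr1d2 was at 83.4 and 92.5 with EtOH and 39.5 and 35.3 with 4-OHT. These counts do not check the genotype, since the removed exons are not stated in the labels. Reads of the PER2-ER transgene could also be counted on Per2, which was not tested. Of 10 fibroblast markers 7 were above 10 CPM, Thy1 and Lum were listed at 0, and the markers summed to 26794 to 29107 CPM with EtOH and 27408 to 29323 with 4-OHT. Marker lists for leukocytes, endothelium, epithelium, muscle and neurons, of 5 genes each, summed to at most 30.8 CPM in any library, with Emr1, Cdh5, Tie1, Myod1, Gfap and Snap25 listed at 0. The endothelial sum was 2.46 to 2.77 CPM with EtOH and 1.12 to 1.26 with 4-OHT, with Kdr called lower, and the neural sum was 3.36 to 3.62 and 4.58 to 5.27, with Tubb3 called. The part of these markers in the changes below was not tested.

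All 3 EGR genes had both 4-OHT libraries above both EtOH libraries, and Egr2 and Egr3 were called higher, each by 1.49-fold. None of the 3 NR4A genes was called, and in each of them the groups overlapped. Calls rest on edgeR's quasi-likelihood test with an adjusted p below 0.05 over 13216 tested genes. By that rule 0.802% of the tested genes were higher and 1.63% were lower, 2.44% together, and in 37.1% of them the groups did not overlap. Since the members were chosen with this contrast known, nothing is read from their count of 2 higher and 0 lower. The median log2 change of the 6 members was 0.05, and that of all tested genes was 0.002, with a median size of 0.07 in either direction. In bulk RNA, a change in the number of cells that express a gene and a change in its RNA per cell cannot be told apart.

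Egr1 encodes the founding EGR factor. It stood at 380 and 384 CPM in the EtOH libraries and at 413 and 448 in the 4-OHT libraries, or 382 ± 2.83 and 431 ± 25.1 (SD, n = 2). Both 4-OHT libraries lay above both EtOH libraries, and they lay further from each other than the EtOH libraries did. The log2 change was 0.17 (SE 0.06, 95% interval 0.04 to 0.30), which is 1.13-fold and did not pass edgeR's test over all genes (adjusted p = 0.223). Without 4-OHT replicate 1, the lower of its pair, the change was 0.23 with an edgeR adjusted p of 0.0477, and without 4-OHT replicate 2, the higher one, it was 0.11 with an adjusted p of 0.9996. The size of the Egr1 difference thus depended on which 4-OHT library was kept.

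Egr2, also known as Krox20, is the EGR factor of hindbrain patterning and Schwann cell myelination. It read 17.1 and 15.3 CPM with EtOH and 23.2 and 25.3 with 4-OHT, from 918 to 2289 counts per library. The lower 4-OHT library was well above the higher EtOH library. Its log2 change was 0.58 (SE 0.08, 95% interval 0.41 to 0.75), with an edgeR adjusted p of 4.53e-06. Over the alternatives tried, the change lay between 0.50 and 0.66 with an adjusted p of at most 0.00124. The authors' deposited table lists Egr2 at a log2 fold change of 0.39 and an adjusted p of 1.55e-06. DESeq2 as run here gave a log2 change of 0.58, so the deposited values may not be on the same scale. The source of this difference was not tested.

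Egr3, an EGR factor of neurons, lymphocytes and muscle spindles, was the lowest of the family. Its level was 5.0 and 4.24 CPM with EtOH and 6.43 and 7.36 with 4-OHT, from 254 to 665 counts. Here too the groups did not overlap, although the 2 EtOH libraries differed by 0.23 on the log2 scale, replicate 1 being higher, and the 4-OHT libraries by -0.19, replicate 1 being lower. The log2 change was 0.57 (SE 0.11, 95% interval 0.34 to 0.81) with an edgeR adjusted p of 9.78e-04. This call did not hold without EtOH replicate 2 (0.47, adjusted p = 0.0816) or without 4-OHT replicate 2 (0.47, adjusted p = 0.0600), where the single library left in a group is taken to vary like the other group. Egr1 and Egr3 have no entry in the authors' deposited table of 3317 genes as given here.

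Nr4a1, or Nur77, is the NR4A receptor known from apoptosis of T cells and from metabolism. Its libraries read 22.5 and 20.8 CPM with EtOH and 18.7 and 21.5 with 4-OHT. The second 4-OHT library lay between the EtOH libraries. The log2 difference was -0.11 (SE 0.08, 95% interval -0.28 to 0.06, edgeR adjusted p = 0.791). It was -0.013 without 4-OHT replicate 1 and -0.21 without 4-OHT replicate 2. Nr4a2, or Nurr1, the receptor of dopamine neuron development, read 14.7 and 17.4 CPM with EtOH and 15.4 and 15 with 4-OHT. Both 4-OHT libraries fell between the EtOH libraries, and the log2 difference was -0.08 (SE 0.09, 95% interval -0.26 to 0.10, edgeR adjusted p = 0.880).

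Nr4a3, or NOR1, had the lowest level of the 6, with 50 to 89 counts per library. It read 1.04 and 0.83 CPM with EtOH and 0.80 and 0.99 with 4-OHT. The groups overlapped almost fully. The log2 difference of -0.07 had an SE of 0.22 and a 95% interval of -0.51 to 0.37 (edgeR adjusted p = 0.976), so a change as large as that of Egr2 in the upward direction lies outside the interval, while a moderate fall lies within it. The authors' deposited table lists Nr4a1 at -0.07, Nr4a2 at -0.05 and Nr4a3 at -0.01 on the log2 scale, each with an adjusted p of 0.999. The interval of Egr2 does not overlap that of Nr4a1, Nr4a2 or Nr4a3, nor that of Egr1. The members were chosen with this contrast known, and the difference between genes was not tested.

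**Figure D1:**
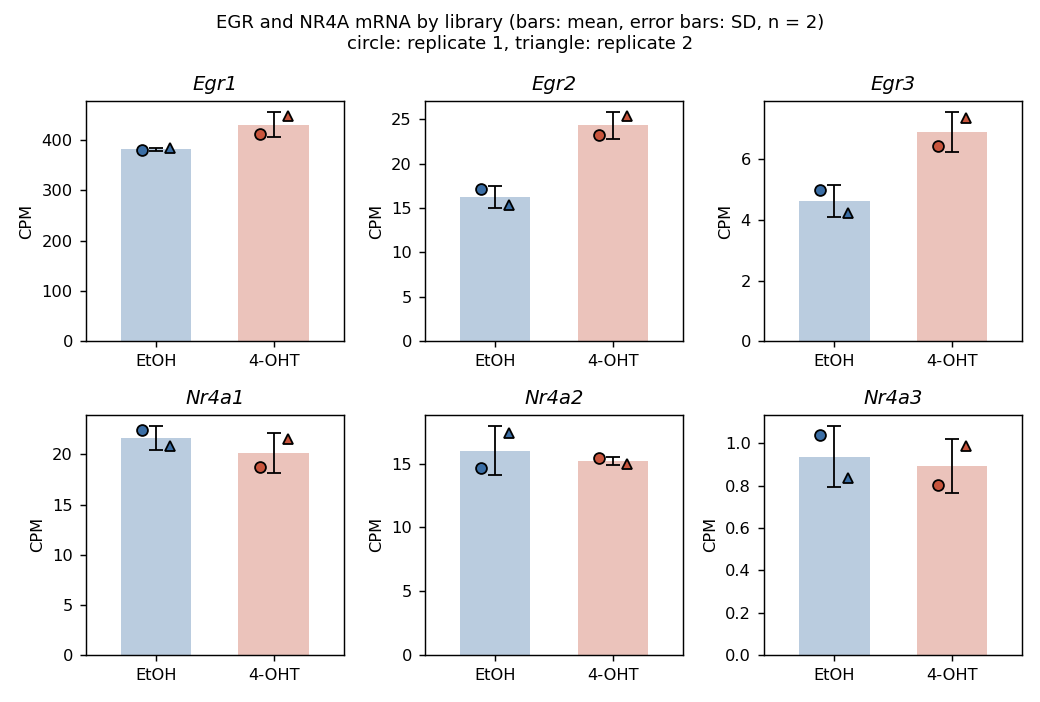
mRNA level of the 6 genes in CPM (vertical axes, each from 0) with EtOH and 4-OHT; bars are means, error bars SD over 2 libraries, circles replicate 1 and triangles replicate 2. Both 4-OHT libraries are above both EtOH libraries for Egr1, Egr2 and Egr3, and the groups overlap for Nr4a1, Nr4a2 and Nr4a3.

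Per kilobase of exon, Egr1 was the most abundant of the 6 genes, at 124 ± 0.92 CPM per kb with EtOH (SD, n = 2). Nr4a1 followed at 8.74 ± 0.48, then Egr2 at 5.47 ± 0.43, Nr4a2 at 4.79 ± 0.57, Egr3 at 3.26 ± 0.38 and Nr4a3 at 0.50 ± 0.08. Egr1 thus stood 14.2 times above Nr4a1 and 250 times above Nr4a3. Egr2 and Nr4a2 are the neighbours in this order that did not differ beyond their spread, with 5.78 and 5.17 CPM per kb in the EtOH libraries of Egr2 and 4.38 and 5.19 in those of Nr4a2. With 4-OHT, Egr2 stood at 8.19 ± 0.50 and Nr4a1 at 8.13 ± 0.80 CPM per kb, and their libraries overlapped. Nr4a2 at 4.54 ± 0.09 and Egr3 at 4.87 ± 0.47 overlapped as well. Among all tested genes, the mean level of Egr1 over the 4 mRNA libraries of both treatments was at percentile 96.9. By the same mean, the others were between percentile 12 (Nr4a3) and 43.0 (Nr4a1).

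The genes whose profile over the 4 mRNA libraries was most like that of the called members were the same 3 for Egr2 and Egr3. Likeness was the Euclidean distance between log2 CPM profiles, each centred on its own mean. Cilp2 was at a distance of 0.08 from Egr2 and 0.05 from Egr3. It read 26.1 and 22.8 CPM with EtOH and 33.0 and 38.8 with 4-OHT, a log2 change of 0.55 (edgeR adjusted p = 1.1e-05). Gpr30, a membrane estrogen receptor now called Gper1, was at 0.08 from each of them and changed by 0.65 (edgeR adjusted p = 0.00231), a call lost in DESeq2 and without EtOH replicate 2 or 4-OHT replicate 2. Gng8 was at 0.09 from each, with a log2 difference of 0.56 at 0.67 to 1.11 CPM (edgeR adjusted p = 0.300).

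Around these 6 genes, 68 genes of their pathways were listed with earlier results known, and 65 were expressed enough to test. Of these, 6 were called higher, 4 lower and 55 were not called, against 0.802% higher and 1.63% lower of all tested genes. Their median log2 change was -0.01, against 0.002 over all tested genes. The corepressors of EGR proteins were not called, with Nab1 at -0.07 and Nab2 at 0.07 on the log2 scale, and the relatives Egr4 and Wt1 were not tested. Nor were Rxra (0.10) and Rxrb (0.09) called, which encode partners of NR4A receptors, and Rxrg had 0 counts. None of the 6 genes for serum response factor and its partners was called, with differences from -0.11 to -0.04. The 9 genes of CREB, its coactivators and cAMP feedback had differences from -0.09 to 0.04 and no call, and neither did any of 9 textbook targets of EGR1, such as Vegfa (-0.003), Fn1 (-0.06) and Tgfb1 (0.20, edgeR adjusted p = 0.200).

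Calls were among the other immediate early genes, where 5 of 27 were higher and 3 lower, and among feedback inhibitors of ERK signalling, where 1 of 10 was higher and 1 lower, beside the same 0.802% and 1.63% of all tested genes. The medians of these lists were 0.01 and -0.004. Arc, whose protein acts at synapses, read 50.7 and 49.7 CPM with EtOH and 60.9 and 67.6 with 4-OHT (log2 change 0.35). Junb, an AP-1 factor, read 78.3 and 76.5 with EtOH and 90.4 and 107 with 4-OHT (0.35). Klf10, a zinc-finger factor induced by TGF-beta, read 64.3 and 58.6 with EtOH and 76.7 and 76.0 with 4-OHT (0.31). Estimates for these 3 genes were below those of Egr2 and Egr3, a difference that was not tested, and in each gene both 4-OHT libraries lay above both EtOH libraries.

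Ier2 rose by 0.25, Ier5 by 0.25 and the ERK phosphatase Dusp6 by 0.29 on the log2 scale, with edgeR adjusted p of 0.0465, 0.0272 and 0.0352. In the fits that left out 1 library each, Dusp6 lost its call in every one, Ier2 and Ier5 without either EtOH library or without 4-OHT replicate 2, Arc without EtOH replicate 2 or 4-OHT replicate 2, Junb without 4-OHT replicate 2 and Klf10 without EtOH replicate 2. With 1 library left out, 1 to 6 of all 65 tested pathway genes were called higher. DESeq2 called 4 of them higher and ended the calls of Ier2 (adjusted p = 0.129) and Dusp6 (adjusted p = 0.0699). Jund differed by 0.39 and was not called (edgeR adjusted p = 0.0938). Other immediate early genes fell. Fosl2, an AP-1 factor, read 254 and 233 CPM with EtOH and 123 and 128 with 4-OHT, and Atf3, a stress-induced repressor, read 17.4 and 17.8 with EtOH and 11.2 and 10.6 with 4-OHT. Their log2 changes were -0.96 and -0.70. Cyr61, a matrix protein, changed by -0.27, a call lost without either EtOH library, and Errfi1, an inhibitor of EGF receptors, by -0.45. Fos itself read 18.3 CPM with EtOH and 18.9 with 4-OHT and was not called. The listed genes thus moved in both directions.

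**Figure D2:**
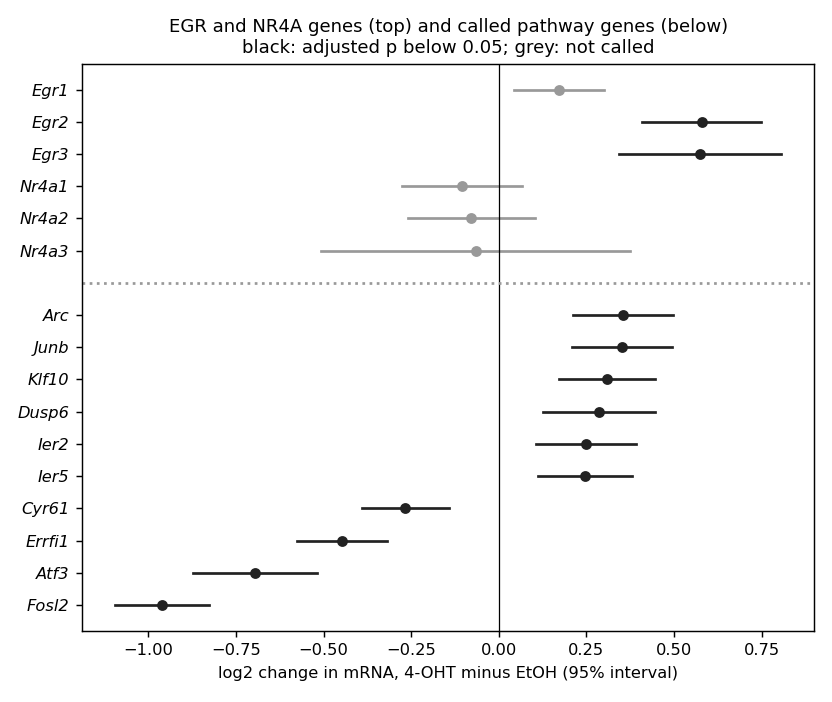
Log2 change in mRNA, 4-OHT minus EtOH (horizontal axis), with 95% intervals, for the 6 genes above the dotted line and the called genes of the pathway lists below it; black marks an adjusted p below 0.05 and grey none. Egr2 and Egr3 lie near 0.58 and 0.57, further right than any called pathway gene, and Fosl2 lies furthest left at -0.96.

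BMAL1 regions lay near 4 of the 6 genes: 4 near Egr2, 4 near Nr4a1, 2 near Nr4a2 and 2 near Nr4a3. Egr1 and Egr3 had 0 within 50 kb. Of 13197 tested genes with 1 annotated place, 45.5% had a region within 50 kb and 27.1% within 10 kb, where the same 4 genes had one. Gene starts are those of the authors' count table: Egr1 at chr18:34861207-34864956 on the plus strand, Egr2 at chr10:67537869-67542188, Nr4a1 at chr15:101266846-101274794 and Nr4a3 at chr4:48051248-48083352 on the plus strand, Nr4a2 at chr2:57107226-57124003 on the minus strand and Egr3 at chr14:70077445-70080157 on the plus strand. The farthest region taken in was 42593 bp upstream of Nr4a1, and the nearest one left out lay 70660 bp downstream of the start of Egr1, over the start of Etf1. That region read 16.3 and 12.5 reads per 10000000 library reads (RP10M) with EtOH and 3.64 and 4.83 with 4-OHT. The nearest region to Egr3 was 273827 bp away.

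BMAL1 signal was lower with 4-OHT at 11 of these 12 regions by edgeR's test, against 93.8% of all regions. The authors called all regions on EtOH-treated cells, so they were chosen for their signal with EtOH, and regions gained with 4-OHT were not analysed here. All 12 had both EtOH libraries above both 4-OHT libraries, as did 98% of all regions, so the share near these genes was close to that of the whole set. Their median log2 change was -1.52 with a range from -2.54 to -0.49, and all regions had a median of -1.66 with quartiles of -1.99 and -1.32. The signal left with 4-OHT was between 16.2% and 66.6% of that with EtOH. These were regions of ordinary strength: with EtOH their median was 19.8 RP10M and their highest value 42.0, against a median of 23.7 and a highest value of 6001 over all regions.

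The direction rests on scaling to library totals. By that scaling 4445 regions were lower and 0 higher. Factors computed over the regions themselves moved the median of all regions to 0.02, with 228 regions lower and 66 higher, and left 0 of the 12 called. The changes below are therefore relative to the total reads of each library.

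At Egr2, the region 106 bp upstream of the start (chr10:67537608-67537763), most of which is printed above, read 20.0 and 19.3 RP10M with EtOH and 8.73 and 5.79 with 4-OHT. These 4 libraries held 27, 34, 12 and 12 reads. RefSeq has another start of Egr2 at position 67537566, before this region. The region is thus upstream of one annotated start and downstream of the other. The groups were well apart, and the fold was 2.78 lower with 4-OHT (log2 change -1.47, SE 0.39, edgeR adjusted p = 2.36e-04). It is the only region of the 4 near Egr2 that was closer to Egr2 than to another gene. The others formed a cluster downstream of the gene that lay within 507 bp of the start of Ado, which encodes a thiol dioxygenase.

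In that cluster, the region over the Ado start (chr10:67548894-67549172, 11025 bp downstream of the Egr2 start) read 36.3 and 35.2 RP10M with EtOH and 4.37 and 7.24 with 4-OHT. Its log2 change of -2.54 (SE 0.35), or 5.83-fold lower, was the largest of the 12 and stood at percentile 3.31 among all regions, counted from the strongest fall. The flanking region 10461 bp downstream of Egr2 (chr10:67548330-67548448) read 11.8 and 11.9 RP10M with EtOH and 6.55 and 4.35 with 4-OHT (-1.17, edgeR adjusted p = 0.0120). The one 11442 bp downstream (chr10:67549311-67549481) read 17.8 and 11.3 with EtOH and 4.37 and 5.79 with 4-OHT (-1.44, edgeR adjusted p = 0.00156). Both were weaker than the region between them, and their calls were lost in DESeq2 and without single libraries, that at 10461 bp without either EtOH library or without 4-OHT replicate 2 and that at 11442 bp without EtOH replicate 1. Ado mRNA read 62.5 and 62.2 CPM with EtOH and 69.1 and 64.8 with 4-OHT and was not called (log2 difference 0.10, edgeR adjusted p = 0.727). Egr2 mRNA was higher and BMAL1 signal lower in the same treatment, as values side by side. Egr3 mRNA was higher too, with 0 BMAL1 regions within 50 kb. A link between the regions and the mRNA of these genes was not tested.

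At Nr4a1, the region that ends 4 bp upstream of the start (chr15:101266584-101266842) read 37.8 and 30.6 RP10M with EtOH and 9.46 and 9.66 with 4-OHT. Its change was -1.82 (SE 0.33), or 3.52-fold lower. The region 12481 bp upstream (chr15:101254148-101254365) read 22.2 and 17.6 with EtOH and 5.09 and 7.72 with 4-OHT, a change of -1.56 (SE 0.39). Signal fell at both while Nr4a1 mRNA was not called. The region 20191 bp upstream (chr15:101246561-101246655) was weak, at 8.15 and 7.94 RP10M with EtOH and 1.46 and 2.41 with 4-OHT, from 2 to 14 reads (-1.95, SE 0.60, edgeR adjusted p = 0.00159, not called by DESeq2). The weakest, 40 bp long and 7 bp from the start of Grasp (chr15:101224214-101224253), read 6.67 and 5.67 with EtOH and 2.91 and 5.31 with 4-OHT. It was the single region of the 12 that was not called (-0.49, SE 0.54, 95% interval -1.55 to 0.57, edgeR adjusted p = 0.369), on 4 to 11 reads per library. Its change was -0.20 without 4-OHT replicate 1 and -1.05 without 4-OHT replicate 2, so the upper end of the range over the 12 regions rests on few reads. Grasp mRNA was not called either (log2 difference 0.16, edgeR adjusted p = 0.647).

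At Nr4a2, the region 112 bp downstream of the start (chr2:57123360-57123891), over exon and intron sequence, was the strongest of the 12, at 45.9 and 38.0 RP10M with EtOH and 10.2 and 13.5 with 4-OHT. A second one lay in an intron 8650 bp downstream (chr2:57115143-57115353), with 24.4 and 27.8 RP10M with EtOH and 8.01 and 5.31 with 4-OHT. The changes were -1.78 (SE 0.31) and -2.02 (SE 0.37), or 3.42-fold and 4.05-fold lower, and Nr4a2 mRNA was not called. At Nr4a3, both regions were upstream. The one 6116 bp from the start (chr4:48044807-48045132), part of which is printed above, read 34.8 and 28.9 RP10M with EtOH and 15.3 and 11.1 with 4-OHT, a change of -1.29 (SE 0.31). The one 6811 bp away (chr4:48044294-48044437) read 13.3 and 9.64 with EtOH and 5.82 and 5.31 with 4-OHT (-1.02, SE 0.45, edgeR adjusted p = 0.0269), a call lost in DESeq2, without EtOH replicate 1 and without 4-OHT replicate 2. RefSeq has another start of Nr4a3 at position 48045305, which is 173 bp from the end of the stronger region, so that this region is distal by one annotation and proximal by the other. Both groups of libraries were apart at each of these 4 regions.

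**Figure D3:**
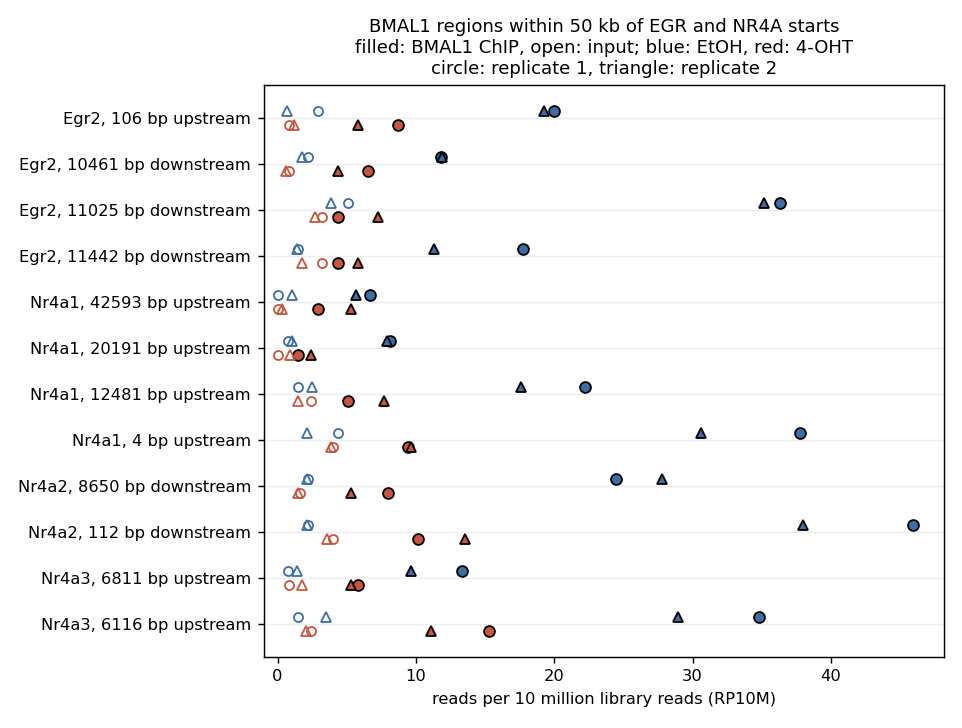
Reads per 10000000 library reads (horizontal axis) at each of the 12 regions, in BMAL1 ChIP (filled) and input (open) libraries with EtOH (blue) and 4-OHT (red), circles replicate 1 and triangles replicate 2. At every region both filled blue points are right of both filled red points, and inputs are at most 5.10.

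**Figure D4:**
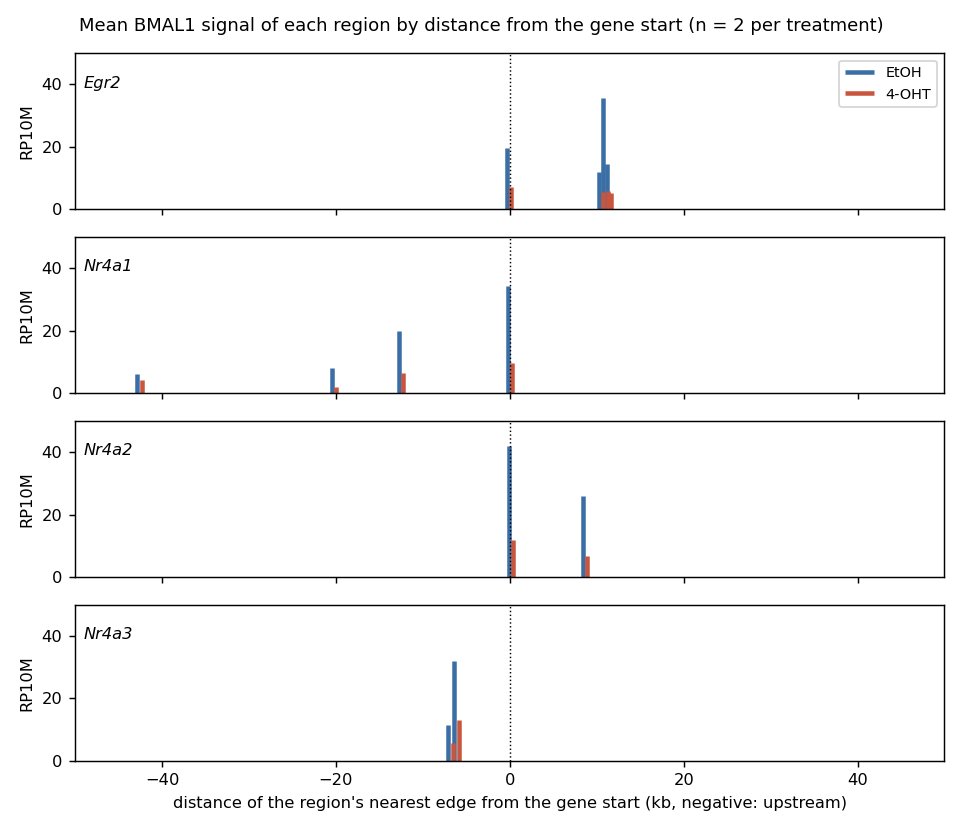
Mean BMAL1 signal in reads per 10000000 library reads (vertical axes, 2 libraries per treatment) against the distance of each region from the gene start in kb, negative upstream; the blue (EtOH) and red (4-OHT) bars of a region are drawn side by side about its distance, and bar widths are not to scale. Egr2, Nr4a1 and Nr4a2 have a region at the start, and the other Egr2 regions cluster between 10461 and 11442 bp downstream.

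Inputs gave the background at the same positions, with 0 to 13 reads per library. The 12 regions were all above input with EtOH by edgeR's test over the 8 libraries, against 99.5% of all regions. The fold ran from 6.05 (10461 bp downstream of Egr2) to 18.9 (112 bp downstream of Nr4a2). All regions were called on EtOH-treated cells, so this outcome follows from how they were chosen and is a description. With 4-OHT, 10 of 12 were above input, against 80.6% of all regions. The exceptions were the regions 11442 bp downstream of Egr2 (2.33-fold, edgeR adjusted p = 0.0539) and 20191 bp upstream of Nr4a1 (2.93-fold, edgeR adjusted p = 0.126). The printed promoter regions kept a signal above input with 4-OHT of 6.15-fold at Egr2, 2.42-fold at Nr4a1 and 5.76-fold at Nr4a3. Between treatments, inputs were called at 0 of the 12 and at 0 of all 4739 regions tested (0%) by edgeR's test. At an unadjusted p below 0.05 these counts were 0 of the 12 and 218 of all (4.6%). When the change of the input was subtracted within the model, 4 of 12 regions were called lower, against 50.5% of all regions. These were the regions 11025 and 11442 bp downstream of Egr2, 4 bp upstream of Nr4a1 and 112 bp downstream of Nr4a2, with changes of -1.95, -2.04, -2.25 and -2.55. The sign turned at 2 of the others, neither of which was called. The change there was 0.29 at 10461 bp downstream of Egr2 (edgeR adjusted p = 0.771) and 0.97 at 42593 bp upstream of Nr4a1 (edgeR adjusted p = 0.545).

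**Figure D5:**
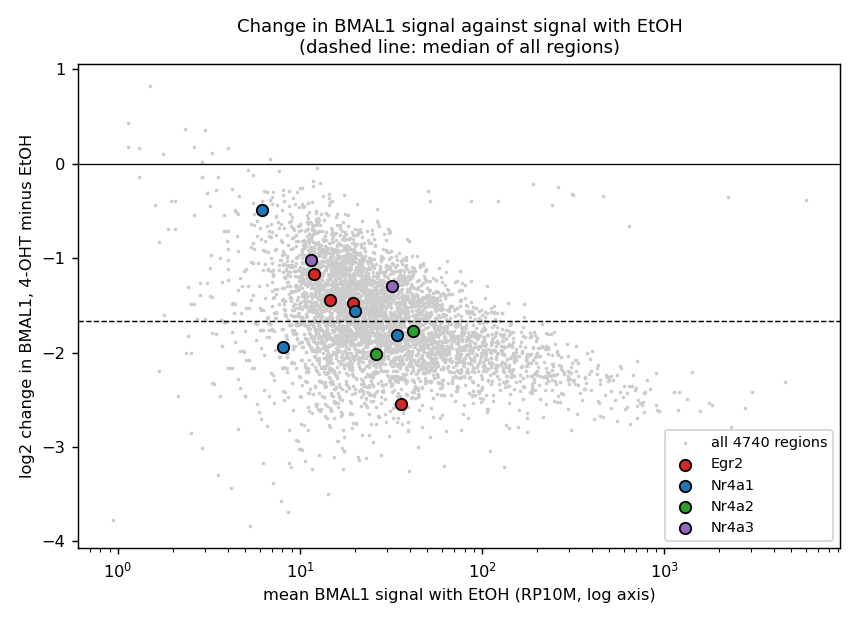
Log2 change in BMAL1 signal, 4-OHT minus EtOH, against mean signal with EtOH in reads per 10000000 library reads (log axis) for all 4740 regions (grey) and the 12 near Egr2, Nr4a1, Nr4a2 and Nr4a3 (coloured); the dashed line is the median of all regions at -1.66. The coloured points spread through the grey cloud, from -2.54 to -0.49, at signals of 6.17 to 42.0.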

How the data were processed

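Gene read counts were made by the authors with featureCounts 1.5.0-p1, per the file headers, which set reverse-stranded counting of exons summed by gene on a UCSC mm10 annotation. The aligner was not given in the sources used here. Region read counts for 4 BMAL1 and 4 input libraries were deposited by the authors for the same 4740 regions, named as MACS2 peaks of the control. The deposited region files also give the caller's fold enrichment, a ratio, and −log10 q values, used only for a stricter choice of regions. A deposited signal table, named RPKM, holds 5 plus reads per 10000000 library reads with no division by length, and the library totals were taken from it. The authors' comparison table, marked as DESeq2 output per the file headers, gives log2 fold changes and p-values. The submitters' processing notes name bedtools 2.25.0.

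Tests on counts used edgeR 4.0.16 under R 4.3.3 (quasi-likelihood, robust, Benjamini-Hochberg adjustment over all features, threshold 0.05), genes with TMM factors and the default filter on low counts, regions with library totals. CPM use TMM factors over all genes. SDs and intervals (95%) rest on 2 libraries per group, and read depth limits precision at counts such as those of Nr4a3 and of single regions. Alternatives were DESeq2 1.42.0, other scalings, no filter, a replicate block, leaving out each library, stricter regions, a distance of 10 kb and subtraction of the input. The scripts were tested on simulated data. Named were the 6 members, their regions, called members of 7 pathway lists, others of those lists as examples, and the 3 genes nearest in profile to each called member. Examples among genes not called, Ado, Grasp and the knocked-out genes were picked after their values were seen. Members and lists were chosen with earlier results of these data known. Gene starts used for distances come from the authors' count table. The starts and sequences of promoter windows and the synonyms of gene names come from RefSeq (GRCm38.p6), where Adgre1 matched the older symbol Emr1.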

Additional observations from a re-analysis of the deposited data

How the results depend on the processing

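Counts over all genes moved with the tool and with single libraries. The 106 genes called higher were 62 with DESeq2 and 40 to 196 when 1 library was left out, and the 216 called lower were 140 to 247. Of the EGR and NR4A genes, 1 to 3 were called higher with 1 library left out, and of the pathway genes 1 to 6. Labels give no shared source to replicates of the same number, and deviations of same-numbered libraries correlated at -0.17 in mRNA, 0.02 in BMAL1 and 0.01 in input. With the replicate number as a block, 60 genes were higher, Egr1 had an adjusted p of 0.852, and Egr2 and Egr3 kept their calls, with 11 of the 12 regions lower. With crossed pairing, chosen after seeing the data, 518 genes were higher and 611 lower, 7 pathway genes were lower and Egr1 passed (adjusted p = 0.00173). With 1 library left out, the difference of Nr4a2 lay between -0.20 and 0.048 and turned without EtOH replicate 2, and that of Nr4a3 lay between -0.23 and 0.11 and turned without EtOH replicate 1 or 4-OHT replicate 1 (0.06). The cause of these shifts was not tested.

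For BMAL1, 7 of the 12 regions were called by DESeq2. In the main edgeR fit, 6 of 6 regions within 10 kb of a start were called, but DESeq2 did not call the one 6811 bp upstream of Nr4a3. With the input subtracted, 2395 of all 4740 regions were called lower, against 4445 without it, and 4 of the 12, against 11. The sign turned, without a call, at the region 10461 bp downstream of Egr2 (0.29) and that 42593 bp upstream of Nr4a1 (0.97). TMM factors over the regions, which by construction set a shared change to about 0, left 228 regions called lower and 0 of the 12. They turned 106 bp upstream of Egr2 (0.21), 10461 bp (0.51) and 11442 bp (0.24) downstream of it, 42593 bp (1.18) and 12481 bp (0.13) upstream of Nr4a1, and 6811 bp (0.66) and 6116 bp (0.40) upstream of Nr4a3. With them 1 region was called between inputs, and above input were 375 regions with EtOH and 232 with 4-OHT, 0 of the 12 in each. With 2 to 67 reads per BMAL1 library and 0 to 13 per input, single regions are measured coarsely, and n = 2 limits every error given.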
